A study of Mus musculus with 2 samples.

Results

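The genes described here mark macrophages, or encode the receptors, adaptors and growth factors by which myeloid cells work. They are 50 of the 21983 genes in a bulk RNA sequencing count table, and all 50 were found by symbol. The RNA came from wild-type primary mouse chondrocytes, the cells that build cartilage. The control culture was given phosphate-buffered saline (PBS), and the treated culture was given recombinant Sparcl1, a secreted matricellular protein, at 50 ng/ml. Exposure lasted 3 days in both. Each condition had 1 library, with 29858851 gene counts in the control and 26871933 after Sparcl1. The labels call the cells MCC without spelling it out, and the sources used here do not give the animals' age or number. Values are given throughout in the order control, then Sparcl1. All 15 markers listed for the labelled cell type had counts, ordered by their sum from 254556 and 199410 for Col2a1, the main cartilage collagen gene, down to 71 and 39 for Matn3, a cartilage matrix protein gene. Col1a1, a collagen gene of fibroblasts and bone, stood at 242065 and 171600 counts.

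Transcripts of a macrophage programme were plentiful in both chondrocyte cultures, and most of its genes stood at similar levels in the 2 libraries. The median log2 ratio of treated over control was 0.06 over the 44 members with at least 20 summed counts, against -0.0019 over all 13317 genes with that many. In bulk libraries, fewer cells of a type and less RNA per cell cannot be told apart. The largest ratios belonged to a few receptor genes and a kinase gene. Tarm1, an activating receptor of myeloid cells, was 4.88-fold higher in the Sparcl1-treated library, and Marco, a scavenger receptor for bacteria, was 3.07-fold higher, both from few counts. The C-type lectin genes Clec4n and Clec4e, the inhibitory Fc receptor gene Fcgr2b and the Src family kinase gene Fgr had ratios of 1.55 to 1.76. The activating Fc receptor gene Fcgr1 and the sialic acid receptor gene Siglec1 were the lowest of the members with at least 200 summed counts, 1.53-fold and 1.42-fold below the control.

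Macrophages are phagocytes that settle in almost every tissue, depend on signals through the receptor Csf1r, and owe much of their gene expression to the transcription factor PU.1, encoded by Spi1. Many of their surface receptors have no signalling part of their own. They pair with the small adaptors DAP12 (Tyrobp) or the Fc receptor gamma chain (Fcer1g), whose cytoplasmic tails carry an immunoreceptor tyrosine-based activation motif (ITAM) that recruits the kinase Syk. In joints, macrophages are known from the synovial lining and marrow, while cartilage itself normally has none.

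Genes were called by size, 2-fold in either direction (1 on the log2 scale), provided that counting error alone did not reach a ratio of 1 and that both libraries together held 20 counts or more. Ratios are of counts scaled to library size (CPM). Their 95% counting intervals come from the exact binomial (Clopper-Pearson) limits of the share of a gene's reads found after Sparcl1. With 1 library per condition there is no replicate check and no p-value, and each ratio compares these 2 libraries, not the conditions. By this rule 2 of the 44 measured members were higher (4.55%, against 0.954% of all genes tested) and 0 were lower (against 0.946%). The 2 were Tarm1 and Marco, which had 44 and 23 summed counts, and 107 of the 127 genes called higher in the whole table also had fewer than 100. With at least 100 summed counts required, no member was called.

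A looser reading gave more members above the control than below it. The counting interval lay wholly above 0 for 18 of 44 members (40.9%, against 20.1% of all genes) and wholly below 0 for 8 (18.2%, against 21.6%). Abundant genes have narrower intervals, and the members were the more abundant, with a median of 2666 summed counts against 1529. At a size of 1.5-fold, 6 members were higher (13.6%, against 2.32%) and 1 was lower (2.27%, against 2.35%). The 6 were Tarm1, Marco, Clec4n, Fcgr2b, Fgr and Clec4e, and the 1 was Fcgr1. Of the 37 members with at least 200 summed counts, 2 lay below and 4 above the central 95% of all such genes, which ran from -0.42 to 0.42.

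**Figure D1:**
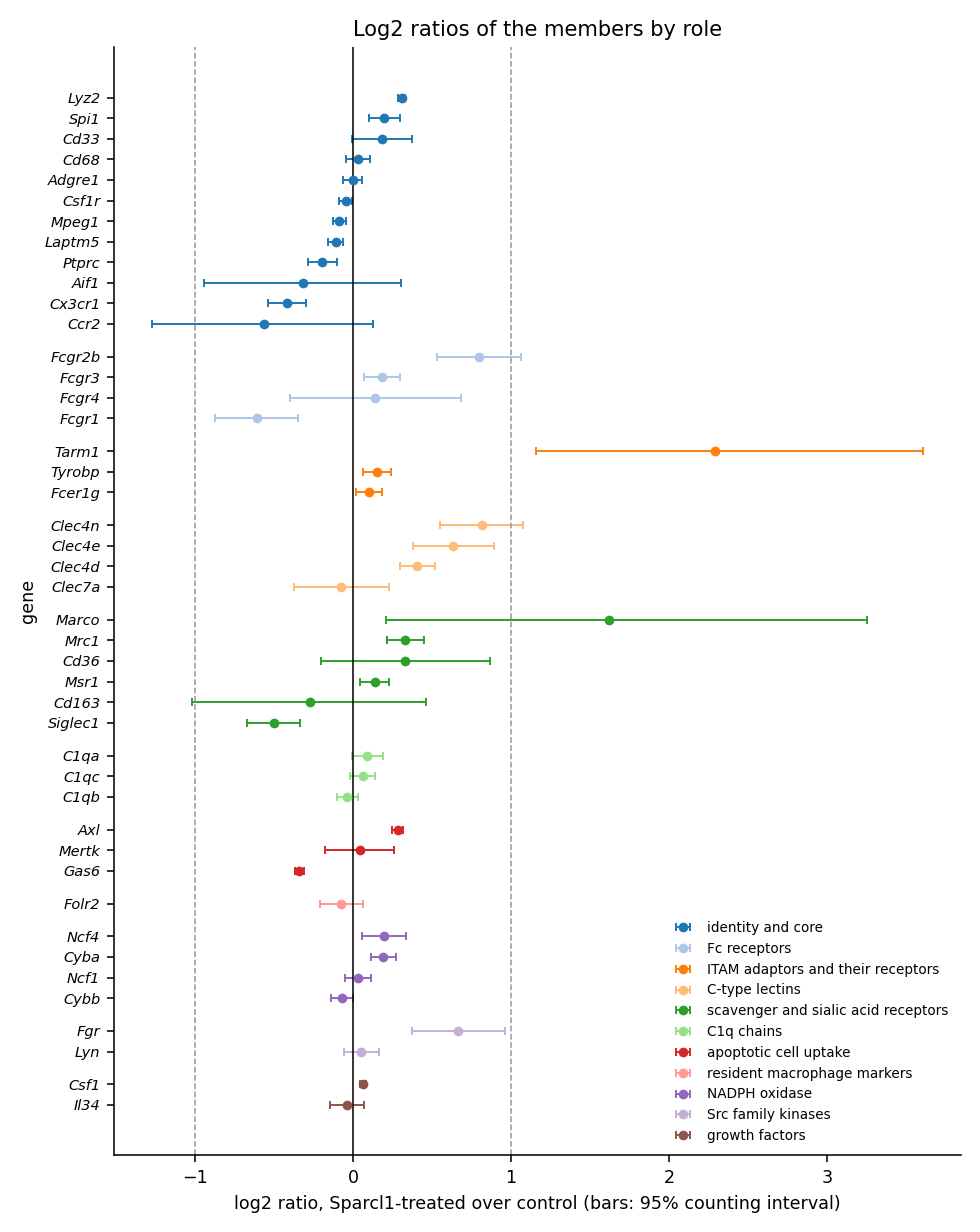
Log2 ratio of treated over control (horizontal axis) for the 44 members with at least 20 summed counts, grouped by role, with bars for the 95% counting interval and dashed lines at the size of the rule. Tarm1 (2.29) and Marco (1.62) lie past the upper dashed line with wide bars, the other 42 members lie between -0.61 and 0.81, and Lyz2, Csf1 and Gas6 have the narrowest bars.

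Another 6 members had too few counts to compare. Trem1, Trem2, Timd4, Csf2 and Csf3 had 0 counts in both libraries, where a count of 0 allows up to 3 (a one-sided 95% limit), and Lyve1 had 0 and 4. The zero counts of Trem2, a lipid-sensing receptor that pairs with Tyrobp, stood beside 2015 and 2065 counts of Tyrobp. All 6 Trem and Treml genes in the table, which lie together on chromosome 17, had 0 counts in both libraries. The annotation and strand setting behind the counts are not given in the sources used here, so a lack of transcripts and a lack of counting cannot be told apart for these genes.

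To compare genes with each other, counts were divided by exon length and scaled to a common library total (TPM). Lyz2, which encodes the lysozyme of macrophages, had the highest level of all members, at 4002 and 4938 TPM. This was of the order of Col2a1 at 3706 and 3142 TPM. The next 2 were Gas6 (1365 and 1076 TPM), a ligand that bridges dying cells to phagocytes, and Csf1 (1364 and 1422 TPM), the main macrophage growth factor. Other cells also make Gas6 and Csf1, and bulk libraries do not show which cells the counts came from. Gas6 and Csf1 could not be ordered in the control, since their counting intervals overlapped. Of the 43 pairs of neighbours in the control order, 23 overlapped in this way. The complement chain C1qb, the adaptors Tyrobp and Fcer1g, the receptor Axl, Mpeg1, Cyba and Cd68 followed between 448 and 301 TPM in the control. Csf1r itself stood at 237 and 229 TPM, above 95.4% and 95.1% of measured genes. At the foot of the order were Ccr2 (0.956 and 0.646 TPM), Cd163 (0.936 and 0.773), Tarm1 (0.521 and 2.54) and Marco (0.419 and 1.29).

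**Figure D2:**
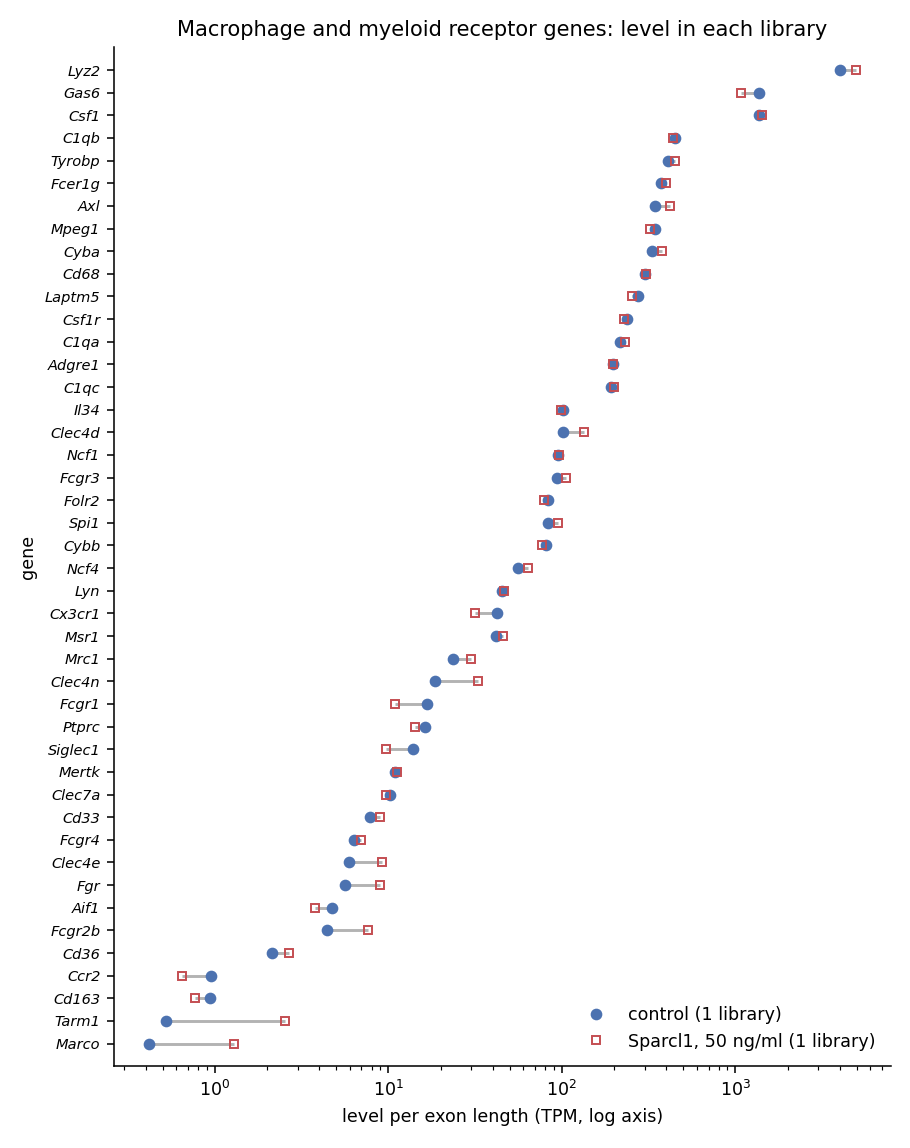
Level per exon length in TPM (horizontal log axis) of the 44 members with at least 20 summed counts, with the control library as filled circles and the Sparcl1-treated library as open squares. The levels run from 0.419 TPM for Marco to 4938 TPM for Lyz2, and within most genes the 2 symbols nearly coincide.

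The identity genes, those that define a macrophage or a leukocyte, were close to level. Csf1r, the receptor for Csf1 and Il34, had 10176 and 9091 counts (log2 ratio -0.05, 95% counting interval -0.09 to -0.0046). Adgre1, an adhesion receptor used to sort mouse macrophages, had 4731 and 4357 (-0.0017), and Cd68, a lysosomal glycoprotein, had 2816 and 2650 (0.03). For Adgre1 and Cd68 the 2 libraries did not differ beyond counting error, and the sign of either ratio depended on the scaling. Exons of Csf1r overlap Hmgxb3 on the opposite strand (1213 and 1231 counts), and the strand setting of the counting is not given in the sources used here. Mpeg1, a pore-forming protein that kills engulfed bacteria, had 11033 and 9581 counts (-0.09). Laptm5, a lysosomal membrane protein of blood cells, had 7738 and 6611 (-0.11), and Ptprc, the pan-leukocyte phosphatase CD45, had 2225 and 1793 (-0.19). For these 3 the control was the higher library, beyond counting error and by at most 1.14-fold.

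Lyz2 and Spi1 lay on the other side. Lyz2 had 39139 and 44617 counts, and its log2 ratio of 0.31 (0.29 to 0.33) was the highest in this group. Spi1 had 1661 and 1757 counts (0.20, 0.10 to 0.30). Transcripts of Lyz2 share 15.4% of their 50-base words with those of its copy Lyz1, so part of its count is uncertain.

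Chemokine receptors of monocytes and resident cells had ratios below 1. Cx3cr1, the fractalkine receptor, had 1410 and 973 counts (-0.42, -0.54 to -0.30). Ccr2, which draws monocytes out of the blood, had 48 and 30 (-0.56, -1.27 to 0.13), and the difference was not detectable at this depth. Ccr2 was thus rare in both libraries, at under 1 TPM, whereas Cx3cr1 was not. Aif1, a calcium-binding protein used to stain macrophages, had only 54 and 40 counts (-0.32, -0.94 to 0.30), far below Csf1r. Cd33, a lectin for sialic acid, had 455 and 476 (0.18, -0.01 to 0.37).

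Fc receptors, which bind the tail of IgG antibodies, gave opposite ratios for an activating and an inhibitory member. Fcgr1, the high-affinity activating receptor, had 323 and 195 counts (-0.61, -0.87 to -0.35), so the control was higher. Fcgr2b, the inhibitory receptor of the family, had 190 and 304 counts (0.80, 0.53 to 1.06), so the treated library was higher. The low-affinity activating receptor Fcgr3 had 1206 and 1261 (0.18, 0.07 to 0.30), and Fcgr4 had 59 and 60 (0.14, -0.40 to 0.68). Per exon length, Fcgr1 was 3.80 times Fcgr2b in the control and 1.43 times in the treated library. By longest-transcript length, Fcgr1 stood above Fcgr2b in the control (13.0 against 5.57 TPM). In the treated library it stood below (8.46 against 9.64 TPM), so the order there depends on the length used. The ratio of the 2 genes inside a library does not depend on scaling. Its log2 difference, treated minus control, does not depend on the lengths either, and was -1.41 (95% counting interval -1.78 to -1.03). This and the gene pairs below were picked after their values were seen. Their intervals do not allow for that choice, and the pairs restate the single-gene ratios. Fcgr3 was the most abundant of the 4 in both libraries, at 93.5 and 106 TPM. On chromosome 1, Fcgr2b (170958617 to 170976547), Fcgr4 (171018920 to 171029761) and Fcgr3 (171051174 to 171064935) are neighbours, while Fcgr1 is on chromosome 3 (96282909 to 96293969). Fcgr3 shares 9.58% of its 50-base words with Fcgr2b, and where counting split such reads both values are uncertain.

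The ITAM adaptors Tyrobp and Fcer1g were abundant, and both were slightly higher after Sparcl1, by at most 1.11-fold. With the scaling used here both differences were beyond counting error. Tyrobp had 2015 and 2065 counts (0.15, 0.06 to 0.24) and Fcer1g 2409 and 2380 (0.10, 0.02 to 0.18). Scaling instead to pan-leukocyte genes outside the set moved each ratio by -0.032, enough to bring the interval of Fcer1g across 0. Tarm1, whose product pairs with the gamma chain, had 8 and 36 counts, a log2 ratio of 2.29 with an interval of 1.16 to 3.60. The treated library was the higher one, and the size of the difference is poorly fixed. Relative to Fcer1g in the same library, Tarm1 was higher by a log2 of 2.19 (1.05 to 3.51) after Sparcl1. The gene lies on chromosome 7 at 3486500 to 3502624.

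C-type lectins of phagocytes read sugars and glycolipids of microbes and of damaged cells. Dectin-2 (Clec4n), Mincle (Clec4e) and MCL (Clec4d) signal through the gamma chain, whereas Dectin-1 (Clec7a) carries its own short activation motif. Clec4n had 197 and 319 counts (0.81, 0.55 to 1.08), Clec4e 218 and 312 (0.63, 0.38 to 0.89) and Clec4d 1203 and 1469 (0.41, 0.29 to 0.52). The treated library was higher for each, by 1.76-fold, 1.55-fold and 1.32-fold, and all 3 lie below the 2-fold rule. Clec7a, with 200 and 175 counts (-0.08, -0.38 to 0.22), did not differ beyond counting error. The annotation classes it as a polymorphic pseudogene. Per exon length, Clec4n was 1.83 times Clec7a in the control and 3.39 times after Sparcl1, a log2 difference of 0.89 (0.49 to 1.29). Clec4n (123229843 to 123247021), Clec4d (123262111 to 123275265) and Clec4e (123281789 to 123289870) are adjacent on chromosome 6, and Clec7a lies further along it (129461591 to 129472779). Of 6 measured other C-type lectins, 0 passed the rule and the median log2 ratio was -0.0047. Among them Clec5a had 663 and 696 counts (0.19), and Clec12a, an inhibitory lectin, had 1238 and 928 (-0.30).

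Stretches upstream of the members past 1.5-fold are shown to set out the letters GAGGAA, the core that PU.1 prefers. Of these 7 members 6 had a RefSeq window, and 5 are printed, since that of Fcgr2b overlaps annotated exons. They are the 250 bases before the RefSeq transcription start on GRCm38.p6, 5′ to 3′ on the gene's strand, with GAGGAA or its reverse complement TTCCTC in capitals.
Tarm1 (chr7:3502625-3502874, minus strand): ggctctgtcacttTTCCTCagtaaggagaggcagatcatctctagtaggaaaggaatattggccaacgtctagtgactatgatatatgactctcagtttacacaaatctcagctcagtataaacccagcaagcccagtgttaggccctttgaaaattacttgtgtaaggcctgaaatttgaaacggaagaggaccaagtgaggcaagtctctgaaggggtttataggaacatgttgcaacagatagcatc
Marco (chr1:120505025-120505274, minus strand): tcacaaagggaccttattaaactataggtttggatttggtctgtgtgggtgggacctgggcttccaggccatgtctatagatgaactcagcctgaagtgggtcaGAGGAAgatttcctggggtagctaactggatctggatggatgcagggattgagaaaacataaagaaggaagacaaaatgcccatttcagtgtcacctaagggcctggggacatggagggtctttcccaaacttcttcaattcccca
Clec4e (chr6:123289872-123290121, minus strand): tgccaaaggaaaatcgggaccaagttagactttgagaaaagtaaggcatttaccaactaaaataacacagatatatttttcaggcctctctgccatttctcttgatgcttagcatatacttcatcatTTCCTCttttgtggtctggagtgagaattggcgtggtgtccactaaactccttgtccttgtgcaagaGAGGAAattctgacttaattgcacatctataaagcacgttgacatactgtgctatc
Fgr (chr4:132973845-132974094, plus strand): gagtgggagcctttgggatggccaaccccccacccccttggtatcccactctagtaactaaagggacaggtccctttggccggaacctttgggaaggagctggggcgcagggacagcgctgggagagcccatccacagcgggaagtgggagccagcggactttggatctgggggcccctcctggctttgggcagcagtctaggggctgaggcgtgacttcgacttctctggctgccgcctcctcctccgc
Fcgr1 (chr3:96293970-96294219, minus strand): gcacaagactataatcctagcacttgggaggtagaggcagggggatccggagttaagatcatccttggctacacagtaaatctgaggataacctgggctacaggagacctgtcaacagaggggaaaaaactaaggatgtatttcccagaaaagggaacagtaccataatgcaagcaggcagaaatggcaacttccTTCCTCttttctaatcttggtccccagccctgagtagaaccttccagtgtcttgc

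Of the 6 windows 4 held the motif, 2 times in Clec4e and 1 time each in Tarm1, Marco and Fcgr1, and the windows of Fgr and Fcgr2b did not. In Clec4e the copies lay 51 to 56 and 118 to 123 bases before the start, and in Fcgr1 the copy lay 50 to 55 bases before it. Of the 50 members 37 matched RefSeq's upstream windows, and 21 of their 41 windows (51.2%) held GAGGAA on either strand. Over all 32851 windows of that length the share was 23.3%. A match describes the letters and is not a binding site. The genes shown were chosen after their ratios and matches had been seen.

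Scavenger receptors, which take up modified lipoproteins, microbes and debris, gave ratios on both sides of 1. Marco (chromosome 1, 120474538 to 120505024) had 6 and 17 counts (1.62, 0.21 to 3.25), so the call rests on 23 counts in all. Mrc1, the mannose receptor, had 1124 and 1303 (0.33, 0.21 to 0.45), and Msr1, the class A scavenger receptor, had 1978 and 2003 (0.14, 0.04 to 0.23). Siglec1, which binds sialic acids and is known as an interferon-inducible gene, had 732 and 476 (-0.50, -0.67 to -0.34). The treated library was thus higher for the first 3 and lower for Siglec1. Scarb1, another scavenger receptor gene outside the set, had the same 1978 and 2003 counts as Msr1. Whether that is a coincidence was not tested. Siglec1 relative to Mrc1 was lower after Sparcl1 by a log2 difference of -0.83 (-1.04 to -0.63), from 0.581 to 0.326 per exon length. Cd36, a fatty acid and lipoprotein receptor that other cells also make, had 57 and 66 counts (0.33, -0.20 to 0.87), and Cd163, the haemoglobin scavenger, had 38 and 29 (-0.27, -1.02 to 0.46). Neither difference was detectable at this depth. Among 10 measured other scavenger receptors 0 passed the rule, with a median of -0.00025, and Stab1, a scavenger of matrix fragments, had 3802 and 4128 counts (0.24).

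The 3 chains of C1q, which opens the classical complement pathway and which macrophages make in quantity, had log2 ratios within 0.13 of each other. C1qa had 1681 and 1650 counts (0.09, -0.01 to 0.19), C1qb 3625 and 3259 (-0.04, -0.11 to 0.03) and C1qc 2767 and 2660 (0.06, -0.02 to 0.14). With the scaling used here none of the 3 intervals excluded 0. Total counts as library sizes moved each ratio by 0.035, enough to put the intervals of C1qa and C1qc above 0. Per exon length C1qb led in both libraries, at 448 and 436 TPM, and C1qa (218 and 231) and C1qc (193 and 201) followed. By longest-transcript length C1qb still led, but C1qc (239 and 248 TPM) stood above C1qa (168 and 178). The genes are adjacent on chromosome 4, with C1qb at 136880129 to 136886187, C1qc at 136889804 to 136893065 and C1qa at 136895917 to 136898803.

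Receptors and a ligand for the uptake of dying cells had ratios on both sides of 1. Mertk, the receptor tyrosine kinase typical of resident macrophages, had 354 and 336 counts (0.04, -0.18 to 0.26). Axl, its relative, which fibroblasts also make, had 12889 and 14450 (0.28, 0.25 to 0.32), and the ligand Gas6 had 25845 and 18820 (-0.34, -0.37 to -0.31). Gas6 was the higher of the 2 per exon length, 3.96 times Axl in the control and 2.57 times after Sparcl1, a log2 difference of -0.62 (-0.67 to -0.58). The second ligand gene, Pros1, had 5408 and 5549 counts, and the third receptor gene, Tyro3, had 759 and 858 (0.29). Of 11 measured genes of this pathway on the wider list, which repeats Axl, 0 passed the rule, and the median was 0.02.

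Markers of long-lived resident macrophages were uneven. Folr2, a folate receptor, had 959 and 839 counts (-0.08, -0.21 to 0.06), with no difference beyond counting error, at 83.5 and 79.0 TPM. Lyve1, a hyaluronan receptor, and Timd4, a receptor for dying cells, were at or near 0 as given above, and Cd163 was below 1 TPM. Among Folr2, Lyve1, Timd4 and Cd163, only Folr2 was therefore present in quantity in either library. Cx3cr1 and Mertk, described with other groups above, stood at 42.1 and 31.5 TPM and at 11.0 and 11.3 TPM.

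The phagocyte NADPH oxidase makes superoxide from a membrane pair, Cybb and Cyba, and cytosolic subunits that join it on activation. Cybb, the catalytic subunit, had 3505 and 3082 counts (-0.07, -0.14 to 0.0018), and its partner Cyba had 2548 and 2681 (0.19, 0.11 to 0.27). The organiser Ncf1 had 2569 and 2419 (0.03, -0.05 to 0.11) and Ncf4 had 842 and 888 (0.19, 0.06 to 0.33). All 4 were abundant and differed by at most 1.14-fold. The sign of the Ncf1 ratio depended on the scaling, and its exons overlap Gtf2ird2 on the opposite strand (368 and 318 counts). Of 6 measured other oxidase genes 0 passed the rule, with a median of 0.01.

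Src family kinases phosphorylate the ITAM. Fgr had 162 and 237 counts (0.67, 0.37 to 0.96), the higher value being in the treated library. Lyn had 1360 and 1300 (0.05, -0.06 to 0.16), and Fgr relative to Lyn was higher by a log2 of 0.61 (0.30 to 0.93). Downstream of them, 0 of 17 measured ITAM signalling genes passed the rule, with a median of 0.03 (Fgr and Lyn are among the 17). The kinase gene Syk had 1277 and 1338 counts (0.18, 0.07 to 0.30), and the adaptor gene Blnk was the highest at 0.75, from 66 and 102 counts.

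Growth factors for the lineage were represented by the ligands of Csf1r. Csf1 had 53510 and 51556 counts (0.06, 0.05 to 0.08), and Il34, its alternative ligand, had 1487 and 1336 (-0.04, -0.14 to 0.07). Csf1 was 13.3 times Il34 per exon length in the control and 14.3 times in the treated library. The genes for the granulocyte-macrophage factor, Csf2, and the granulocyte factor, Csf3, had 0 counts in both. Their receptor chains were present: Csf2ra had 1567 and 1691 counts (0.23), Csf2rb 1162 and 1362 (0.35) and Csf3r 80 and 58 (-0.35). Csf2rb has a close relative, Csf2rb2, at 1198 and 1086 counts, so their split is uncertain.

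**Figure D3:**
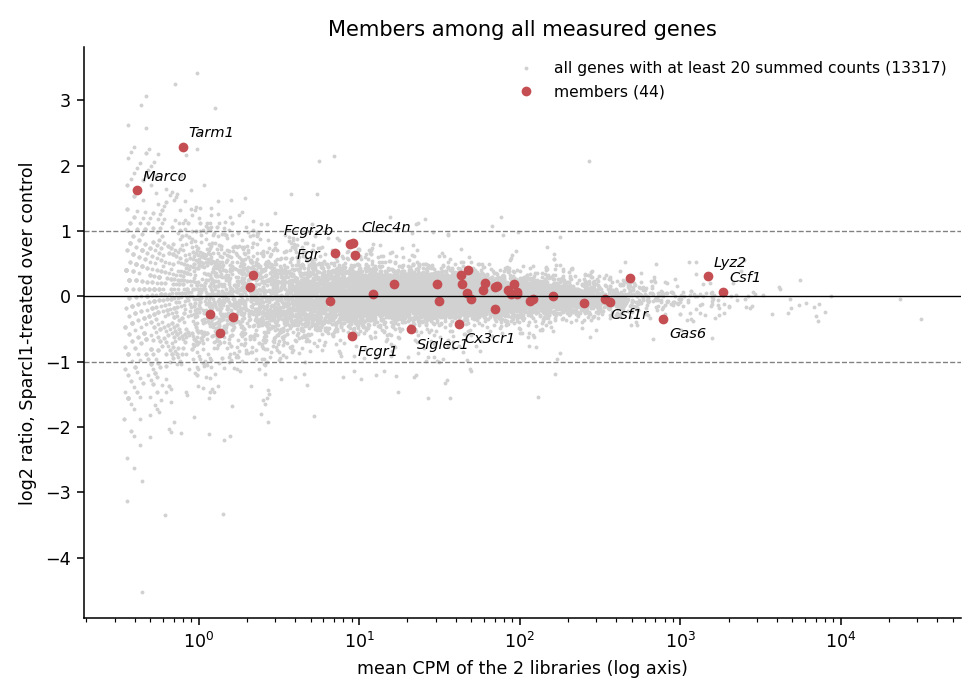
Log2 ratio of treated over control (vertical axis) against mean CPM of the 2 libraries (horizontal log axis) for 13317 genes in grey and the 44 measured members in red, with dashed lines at the size of the rule. Tarm1 and Marco lie among rare genes, where grey points spread widely, and members above about 100 CPM lie between -0.34 (Gas6) and 0.31 (Lyz2).

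Genes outside the set gave a measure of leukocyte RNA that used none of its members. Over 20 pan-leukocyte genes, such as the integrin chain Itgb2 (4803 and 4635 counts) and the actin bundler Lcp1 (8176 and 7744), the median log2 ratio was 0.03, the range was -0.22 to 0.21 and 0 passed the rule. Of 20 other macrophage genes 19 were measured, with a median of 0.05 and 0 past the rule. Their extremes were Cd180, a Toll-like receptor relative (1315 and 842 counts, -0.53), and Pla2g7 (406 and 533, 0.51). The share of all counts taken by the 41 members that leukocytes mainly make was 0.372% in the control (exact 95% interval 0.370% to 0.375%) and 0.413% after Sparcl1 (0.411% to 0.416%). Lyz2 supplied 39139 and 44617 of the 111216 and 111050 counts, and most of the rise in share was its own. These are shares of total counts, a scaling that moved each ratio by 0.035 from TMM. With TMM, the median log2 ratio of the 38 measured genes among the 41 was 0.06. Left out of the 41 were Csf1, Csf2, Csf3, Il34, Axl, Gas6, Cd36, Lyve1 and Cyba, which other cells also make. Scaled to the pan-leukocyte genes, the members' median was 0.030 and 2 members passed the rule.

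Macrophage transcription factors other than Spi1 were mostly level, with 1 of 13 measured genes higher and a median of -0.07. That gene was Tfec, a factor of the Mitf family, with 23 and 51 counts (1.27, 0.53 to 2.04). Cebpb, a factor of inflammatory myeloid gene expression that other cells also make, had 5313 and 6547 counts (0.42, 0.37 to 0.47). The lineage factor gene Irf8 had 637 and 548 counts (-0.10, -0.27 to 0.07).

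Markers of granulocytes, lymphocytes, red cells and vessels had few counts or none. The summed counts were 25 and 33 over 10 neutrophil genes, 12 and 19 over 7 T cell genes, 29 and 4 over 6 B cell genes, 0 and 2 over 6 NK cell genes, 16 and 8 over 7 mast cell genes, 2 and 3 over 6 erythroid genes, and 230 and 141 over 7 endothelial genes. Among defining markers, S100a9, Mpo, Elane, Cd3d, Cd3e, Ncr1 and Mcpt4 had 0 counts in both libraries. The neutrophil and myeloid gene S100a8 had 15 and 31 counts and passed the rule as higher. The 7 dendritic cell genes summed to 423 and 434 counts. Of these Itgax, which macrophages also make, had 369 and 381, the transcription factor gene Zbtb46 had 50 and 48, and Flt3, Clec9a and Siglech had at most 1 count in a library. Osteoclast genes summed to 4822 and 4584 counts, mostly Ctsk (2382 and 2236) and Nfatc1 (1642 and 1655), with Calcr at 0 in both and Acp5 at 72 and 57. The 5 megakaryocyte and platelet genes were an exception, summing to 1559 and 3141 counts (log2 ratio 1.13, 1.04 to 1.22). Most of that sum was Ppbp, a chemokine gene, which passed the rule as higher with 1359 and 2903 counts (1.21, 1.12 to 1.31). Pf4, another platelet chemokine gene, had 75 and 97 counts (0.49, 0.04 to 0.94), the platelet integrin gene Itga2b had 124 and 138 (0.27, -0.09 to 0.63), and Gp9 had 0 in both. The summed chondrocyte markers had a log2 ratio of -0.19 and the summed fibroblast markers -0.28. Their part in the members' ratios was not tested.

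**Figure D4:**
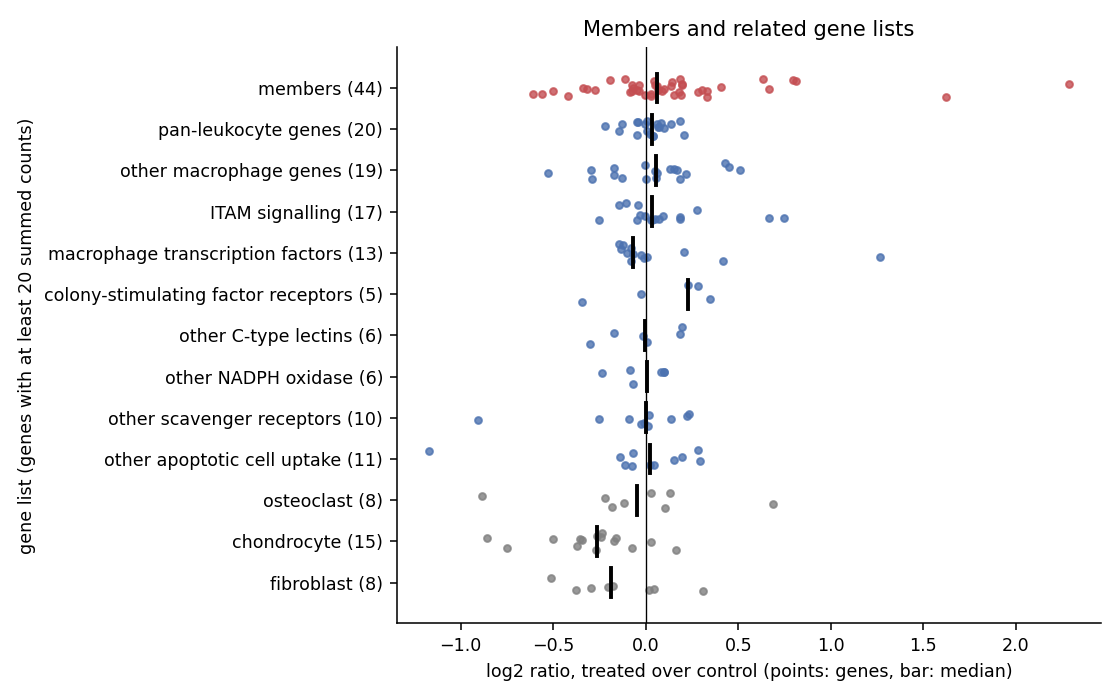
Log2 ratio of treated over control (horizontal axis) for the genes of each list with at least 20 summed counts, the number in brackets, with a black bar at the list's median. The members (0.06), the pan-leukocyte genes (0.03) and the other macrophage genes (0.05) have medians near 0, and the chondrocyte and fibroblast lists lie lower, at -0.26 and -0.19.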

How the data were processed

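Gene expression was measured by RNA sequencing of 2 libraries, control and Sparcl1-treated. Per the labels' protocols, libraries were made from total RNA with a NEBNext Ultra kit. The authors deposited counts, whole reads per gene symbol, which per the submitters' processing notes came from Trimmomatic, FastQC, STAR and HTSeq with build mm10. Versions, annotation, strand setting and the handling of multi-mapped reads are not given in the sources used here.

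Counts were scaled with edgeR 4.0.16 TMM factors (0.988 and 1.01) in R 4.3.3, and the rest was done in Python 3.11.15 with scipy 1.17.1. Coordinates and lengths come from GENCODE M21 on GRCm38 (99.6% of symbols matched), upstream sequence from RefSeq. The intervals cover counting error only. They treat each read as an independent draw, so PCR copies of the same molecule would make them too narrow. The steps were tested on simulated counts that held counting error only, with changes placed in genes with at least 200 summed counts. That test does not cover differences between replicate libraries or changes in rarer genes. Every member was named or counted. Genes of other lists were named by abundance, by the rule, or as extremes, and further examples and the within-library gene pairs were picked after their values were seen. The members, lists and rules were chosen with earlier results of these data known. Of 259 list symbols 2 were not matched. The alternatives tried were scaling by total counts, by the upper quartile, by DESeq2 1.42.0 or to pan-leukocyte genes, other count and fold thresholds, a prior count of 2, and longest-transcript lengths.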

Additional observations from a re-analysis of the deposited data

How the results depend on the processing

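With total counts as library sizes the members' median log2 ratio was 0.10, and with scaling to the pan-leukocyte genes 0.030, against 0.06 with TMM. Total counts moved the median of all genes by 0.03. With at least 100 summed counts 0 members were higher by the rule, because Tarm1 and Marco have fewer. At 1.5-fold 6 members were higher and 1 was lower. Under the other scalings, with no count filter and at 3-fold, 2 were higher and 0 lower. Of 220 values of single members under other scalings or a prior count, 213 stayed within their counting interval or kept their call, and 7 (of Lyz2, Axl, Gas6 and Csf1) left their narrow interval with the same sign. Signs differed between scalings for 3 of 44 members, Adgre1, Cd68 and Ncf1, all near 0. Total counts moved each ratio by 0.035 and the pan-leukocyte genes by -0.032. Intervals that end close to 0, such as those of Csf1r, C1qa, C1qc and Fcer1g, can therefore come to include or exclude 0. The numbers of intervals above and below 0 hold for TMM. With longest-transcript lengths, 9 of the 10 highest members were the same, and the level of Ptprc was 2.46 times that from all exons. Some orders reversed, among them Fcgr1 and Fcgr2b in the treated library, and C1qa and C1qc in both. No paired analysis was possible because each group has 1 library, and for the same reason none could be left out. Depth limits the members below 100 summed counts most: the interval of Marco spans 0.21 to 3.25.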

Other observations

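The letters GAAA, any 2 bases and GAAA again, a core of interferon-stimulated response elements, were found on either strand in 4 of the members' 41 upstream windows (9.76%, against 2.98% of all 32851 windows). They belonged to Cybb, Ncf1, Fcgr4 and Aif1, and this search was added after the values were seen. Cybb held the letters 3 times within 168 bases of its start. The log2 ratios of these genes were -0.07, 0.03, 0.14 and -0.32, none past the rule. The overlap of this motif with GAGGAA was not counted.

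Cd5l, a secreted scavenger receptor of tissue macrophages, had 67 and 33 counts (log2 ratio -0.90, 95% counting interval -1.55 to -0.28). Vwf, an endothelial and platelet adhesion protein gene, had 145 and 84 (-0.67, -1.08 to -0.27). Cd79a, a B cell receptor gene, had 15 and 0 counts. Dcstamp, which osteoclast and giant cell fusion requires, had 35 and 52 counts (0.69, 0.04 to 1.35).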
